A study of Mus musculus with 4 samples.

Results

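IgM-bearing germinal-centre B cells were germinal-centre-like cells of mouse Peyer's patches whose antibody heavy-chain transcripts came mostly from Ighm or Ighd, the genes of the unswitched IgM and IgD heavy chains. They were chosen by their measured heavy-chain UMIs and taken from cluster 3 of a table of 22569 B-lineage cells that the authors deposited. A cell was included when its unique molecular identifiers (UMIs, each standing for 1 counted RNA molecule) over the 8 constant genes Ighm, Ighd, Igha, Ighg1, Ighg2b, Ighg2c, Ighg3 and Ighe summed to 3 or more and Ighm or Ighd held the most. This gave 408 of the 1900 cells of cluster 3. The other 1492 cells of the cluster served as the comparison, and most of them were led by a switched gene.

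A germinal centre is the site in a lymphoid follicle where activated B cells divide, mutate their antibody genes and compete for help from T cells. B cells enter it expressing IgM and IgD, and some switch to IgG, IgA or IgE. In Peyer's patches, which sample gut bacteria, germinal centres are present throughout life and IgA is the best known product, so that cells still making IgM heavy chain sit beside switched cells in the same follicle.

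The cells were sorted CD45+ cells, the leukocytes, of Peyer's patches from female wild-type Taconic mice. One group lacked segmented filamentous bacteria (SFB), commensals known for anchoring in the wall of the ileum, and the other carried them, with 2 libraries per group. Per the labels 5 mice per group were pooled, and whether replicates 1 and 2 are separate pools is not given, so p-values measure the spread between libraries, which may be technical. The labels give no age for the mice. In the order SFB-negative 1, SFB-negative 2, SFB-positive 1 and SFB-positive 2, which is kept for every run of 4 values below, the libraries gave 47, 148, 51 and 162 IgM-bearing cells with a median of 3767, 7023.5, 4925 and 15945 UMIs. The other cluster 3 cells numbered 101, 571, 152 and 668 with medians of 4240.0, 7459, 3927.5 and 17204.5 UMIs. The replicate 2 libraries thus held 89.3% of the 4592482 UMIs of IgM-bearing cells, and the replicate number also marks the Cell Ranger version and the presence of antibody tags. No IgM-bearing cell shared its barcode with an IgM-bearing cell of another library.

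Markers that the rule did not use set IgM-bearing cells apart from naive-like cells and placed them with the germinal centre, with exceptions in individual cells. These genes helped to form the cluster, so their levels are a description. Rgs13, a regulator of G-protein signalling typical of germinal-centre B cells, reached 935, 469, 498 and 487 CPM (UMIs scaled to the same total in each class), and the naive-like cells of cluster 0 held at most 10.5. Mki67, a marker of dividing cells, reached 198, 221, 179.8 and 837 CPM and at most 3.76 in cluster 0. Bcl6, the transcription factor of the germinal-centre programme, did not separate the classes, since 13.48, 79.5, 18.7 and 140.2 CPM in IgM-bearing cells stood beside 13.7, 55.4, 13.6 and 106 in cluster 0. A UMI of Rgs13 was found in 70.2%, 79.7%, 45.1% and 72.2% of IgM-bearing cells. In T-like barcodes, which should lack it and measure free RNA, the share was 0.400%, 2.24%, 0.743% and 0.656% at median depths of 1585.5, 3526.5, 1405 and 6534 UMIs. Over 12 germinal-centre genes, 41 of 47, 140 of 148, 32 of 51 and 157 of 162 IgM-bearing cells held 3 or more UMIs. In SFB-positive replicate 1, 8 of the 51 cells held none, against 4 of 152 other cluster 3 cells, so the name fits that library least.

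The heavy-chain transcripts chose the cells and are given as a description. Ighm (ENSMUSG00000076617, minus strand of chromosome 12 at 113418558 to 113422730, GRCm38) made up 88.8%, 82.5%, 84.8% and 89.2% of the UMIs of the 8 genes. Its level was 4805, 1341, 3915 and 3245 CPM. Naive-like cluster 0, whose cells met no such rule, held 3427, 696, 3371 and 1226 CPM, so the order is partly set by the choice of cells. A cell of median depth would take 1.55, 0.805, 1.69 and 2.70 Ighm UMIs from free RNA at the level of the T-like barcodes, and the median cell held 18, 7, 16 and 31. Ighd (ENSMUSG00000104213, which lies downstream on the same strand at 113406604 to 113416324) took 1.41%, 6.98%, 6.41% and 3.79%, and 195 of the 408 cells held a UMI of it. Only 11 cells were led by Ighd and in 6 it tied with Ighm. Ighm was uneven among cells, with a cell of SFB-negative replicate 2 at 326 UMIs and one of SFB-positive replicate 2 at 1058.

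Most IgM-bearing cells also held a UMI of a switched constant gene, and which gene differed by library. A count per gene does not show whether the cell itself had switched. At least 1 UMI of a switched gene was present in 26 of 47, 90 of 148, 32 of 51 and 124 of 162 cells, together 66.7%, and 136 cells had none. Ighg1, the IgG1 heavy chain, was found in 17.0% and 45.3% of the cells without SFB and in 3.92% and 3.70% with SFB. For IgG2b, Ighg2b was found in 17.0% and 6.08% against 35.3% and 39.5%. Igha, the IgA heavy chain, was found in 23.4% and 11.5% against 25.5% and 46.9%. Ighg3, the IgG3 heavy chain, was found in 19.1% and 2.70% against 15.7% and 22.8%, and its groups overlapped. Ighe and Ighg2c were each found in 1 cell. These shares are a description of 2 against 2 libraries, with no test. T-like barcodes, a measure of free RNA, held Ighg2b in 0% and 0.236% without SFB and in 5.20% and 11.7% with it. They held Igha in 7.60% and 1.65% against 9.67% and 11.6%, and Ighg1 in 0% and 3.66% against 1.12% and 0.562%. For Igha, Ighg1 and Ighg2b each share of IgM-bearing cells was above that of the T-like barcodes of its library, which were shallower, and the part of free RNA and of depth in the order of the libraries was not tested. The switched UMIs were few. Ighg1 took at most 7.89% and Ighg2b at most 4.55% of the 8-gene UMIs in any library. The related gene Ighg2c held 0, 0, 0 and 1 UMIs in these cells, beside 36, 19, 56 and 310 of Ighg2b. Whether the counting divided reads between these genes was not tested.

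**Figure D1:**
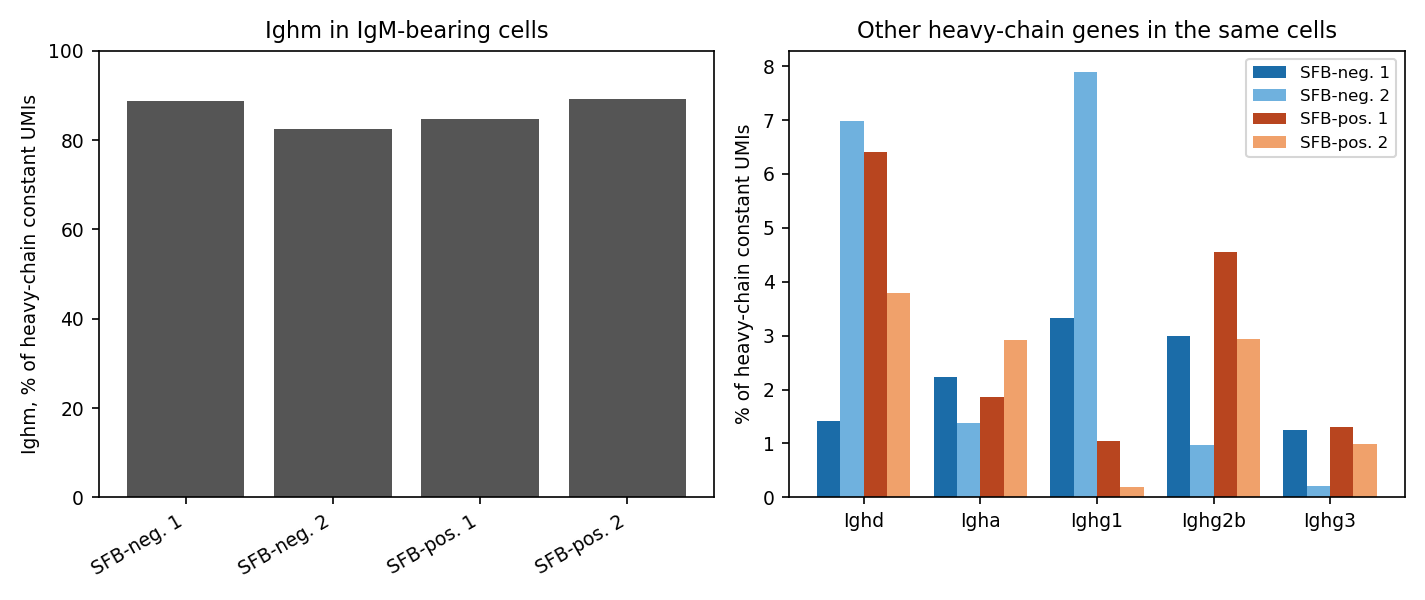
Share of heavy-chain constant UMIs held by Ighm (left, percent, axis from 0 to 100) and by Ighd, Igha, Ighg1, Ighg2b and Ighg3 (right, percent, axis from 0) in the IgM-bearing cells of each library. Ighm lies between 82.5% and 89.2%, Ighg1 is highest in SFB-negative replicate 2 at 7.89%, and Ighg2b is highest in SFB-positive replicate 1 at 4.55%.

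At the limit of the rule, 11 cells had exactly 3 heavy-chain UMIs and 23 led by a single UMI. Just outside it, 75 cluster 3 cells had 2 heavy-chain UMIs, of which 8 were led by Ighm or Ighd, and 31 cells were left out for a tie. The median IgM-bearing cell held 22, 9.5, 21 and 38 heavy-chain UMIs, so the assignment rests on fewest molecules in SFB-negative replicate 2.

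Antibody tags, which count surface protein and were not used by the rule, were present in both replicate 1 libraries, with 1 library per group and therefore no test. At least 3 counts of the IgG1 tag were found on 12.8% of IgM-bearing cells of SFB-negative replicate 1 and on 93.8% of the cells led by Ighg1. In SFB-positive replicate 1 these shares were 7.84% and 46.7%. The IgA tag marked 10.6% and 7.84% of IgM-bearing cells and 47.1% and 41.5% of cells led by Igha. On naive-like cells of cluster 0 the shares were 6.02% and 5.47% for the IgG1 tag and 8.11% and 6.95% for the IgA tag. The IgM tag marked 6.38% and 3.92% of IgM-bearing cells and 4.68% and 3.17% of naive-like cells, which also make IgM. It marked 3.08% and 0% of cells led by Ighg1, 0% and 3.08% of those led by Igha and 0% and 5.26% of those led by Ighg2b. Rat isotype control tags marked 1.96% to 6.38% of IgM-bearing cells. The IgM tag thus lay within the range of the controls and did not tell IgM-bearing cells from the others. The IgD tag marked 51.1% and 54.9% of IgM-bearing cells, 89.2% and 75.6% of naive-like cells, and 53.8% and 33.3% of cells led by Ighg1.

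CD38 protein, which in the mouse is high on naive and memory B cells and low on germinal-centre B cells, split the IgM-bearing cells. With the lower quartile of cluster 0 as the limit (15 and 9 counts), 14 of 47 (29.8%, exact 95% binomial interval 17.3 to 44.9) and 25 of 51 (49.0%, 34.8 to 63.4) IgM-bearing cells lay at or above it. Among cells led by Ighg1 the shares were 13.8% and 6.67%, among those led by Igha 5.88% and 13.8%, and among those led by Ighg2b 30.8% and 17.5%. The interval of IgM-bearing cells overlapped that of each switched class in SFB-negative replicate 1. It lay above those of all 3 switched classes in SFB-positive replicate 1. IgM-bearing cells at or above the CD38 limit held 1299 and 834 CPM of germinal-centre identity genes, and those below it 3684 and 2286. Genes of naive follicular B cells ran the other way, at 2919 and 3241 CPM above the limit and 2353 and 1692 below. Intervals of this kind cover counting error only.

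**Figure D2:**
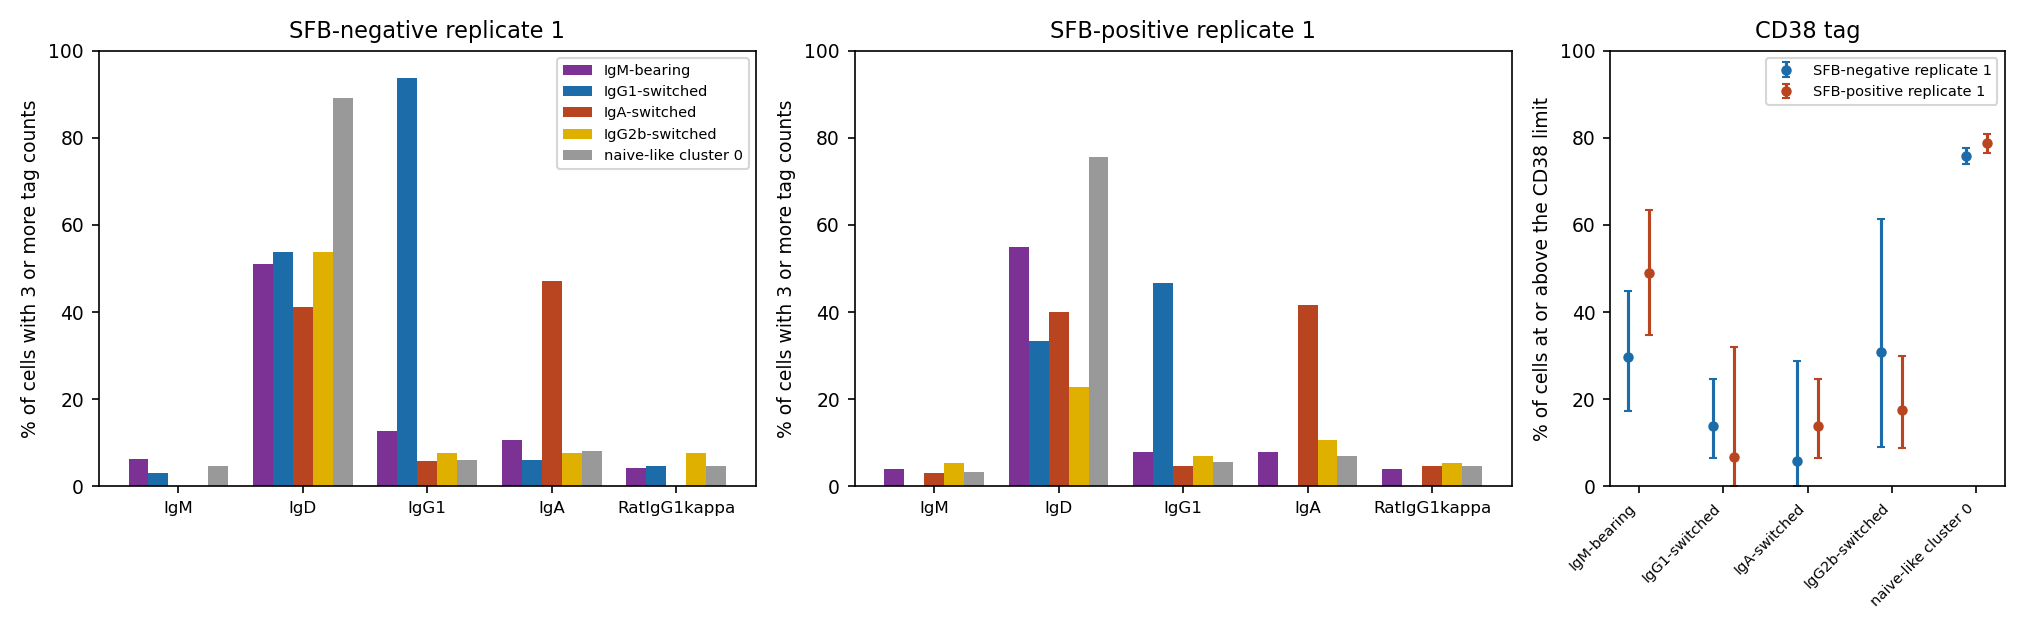
Left and middle, percent of cells with 3 or more counts of 4 antibody-class tags and a rat isotype control in each replicate 1 library. Right, percent of cells at or above the CD38 tag limit, with exact 95% binomial intervals, showing 29.8% and 49.0% of IgM-bearing cells and 75.8% and 78.7% of naive-like cells of cluster 0.

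Against the other cluster 3 cells of the same libraries, IgM-bearing cells had higher transcript levels of surface receptors that resting B cells carry and lower levels of part of the germinal-centre programme. With the 8 rule genes left out, 643 of 7613 genes tested passed an adjusted p of 0.05 (8.45%, edgeR quasi-likelihood test with the library as a block and Benjamini-Hochberg adjustment). Of these, 377 were higher (4.95%) and 266 lower (3.49%) in IgM-bearing cells. The direction was the same in all 4 libraries for 215 of the higher and 227 of the lower genes. The count rests on the 2 deep libraries: it was 194 without SFB-positive replicate 2 and 330 without SFB-negative replicate 2, and without the library block no gene passed by edgeR, with 169 genes at an unadjusted p under 0.05. DESeq2 called 277 genes, all of them among the 643 and in the same direction. In this and the following paragraphs gene levels are CPM scaled by TMM with the rule genes left out, log2 differences are IgM-bearing minus other cluster 3 cells with their SE, and "higher" or "lower" without further words means past this test.

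Of the 11 tested genes of the naive follicular list 10 were higher and none lower, with a median log2 difference of 1.32 against -0.02 over all genes. Cd38, whose protein is described above, held 37.4, 56.2, 130.3 and 73.0 scaled CPM in IgM-bearing cells and 15.2, 14.3, 18.6 and 13.7 in the others, and the classes did not overlap. Its log2 difference was 2.34 ± 0.18 (adjusted p = 8.60e-08). Ccr7, the chemokine receptor that draws B cells toward the T cell zone, held 145, 169.5, 182 and 126.5 against 100.0, 45.6, 52.7 and 23.4 (log2 2.03 ± 0.20, adjusted p = 3.45e-05). Gpr183, the receptor that guides B cells to the outer follicle and is normally shut off in the germinal centre, held 45.7, 159, 55.8 and 105 against 37.0, 55.1, 17.0 and 17.7 (log2 2.02 ± 0.22, adjusted p = 9.54e-05). S1pr1, the receptor for exit from lymphoid tissue, held 29.1, 68.9, 33.5 and 45.7 against 23.9, 24.3, 17.0 and 14.6 (log2 1.52 ± 0.18). In each of these 3 genes SFB-negative replicate 1 showed the smallest difference.

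Cd55, which protects cells from complement, was higher by 1.88 ± 0.20 on the log2 scale, although SFB-negative replicate 1 held 20.8 scaled CPM in IgM-bearing cells and 21.7 in the others. Cr2, the complement receptor CD21, was higher by 0.93 ± 0.13, and Bank1, a B cell scaffold protein, by 1.32 ± 0.15, with 87.2 against 89.2 scaled CPM in SFB-negative replicate 1. Klf2, the transcription factor that drives S1pr1, was higher by 1.21 ± 0.15. Fcer2a, the IgE receptor CD23 (0.40 ± 0.12), and Btg1, a brake on proliferation (0.23 ± 0.07), passed with small differences, and Fcer2a was lower in SFB-negative replicate 1 (178.5 against 215.3 scaled CPM). Without each library in turn 8 of the 10 genes were still past the limit, and Fcer2a and Btg1 were not. Among cells of both classes with 3 or more germinal-centre UMIs, a setting chosen after the data were seen, 8 of the 10 passed, without Fcer2a and Klf2. Naive-like cluster 0 held 10838, 4778, 9600 and 6727 CPM of this list, IgM-bearing cells 2598, 2047, 2548 and 2426, and the other cluster 3 cells 2258, 1184, 1614 and 1129. Median depth was lower in IgM-bearing than in the other cells in 3 of 4 libraries, and with the deepest 5% of cells left out 9 genes of the list passed. A doublet with a naive-like cell need not be among the deepest cells, and the part of doublets in these values was not tested.

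**Figure D3:**
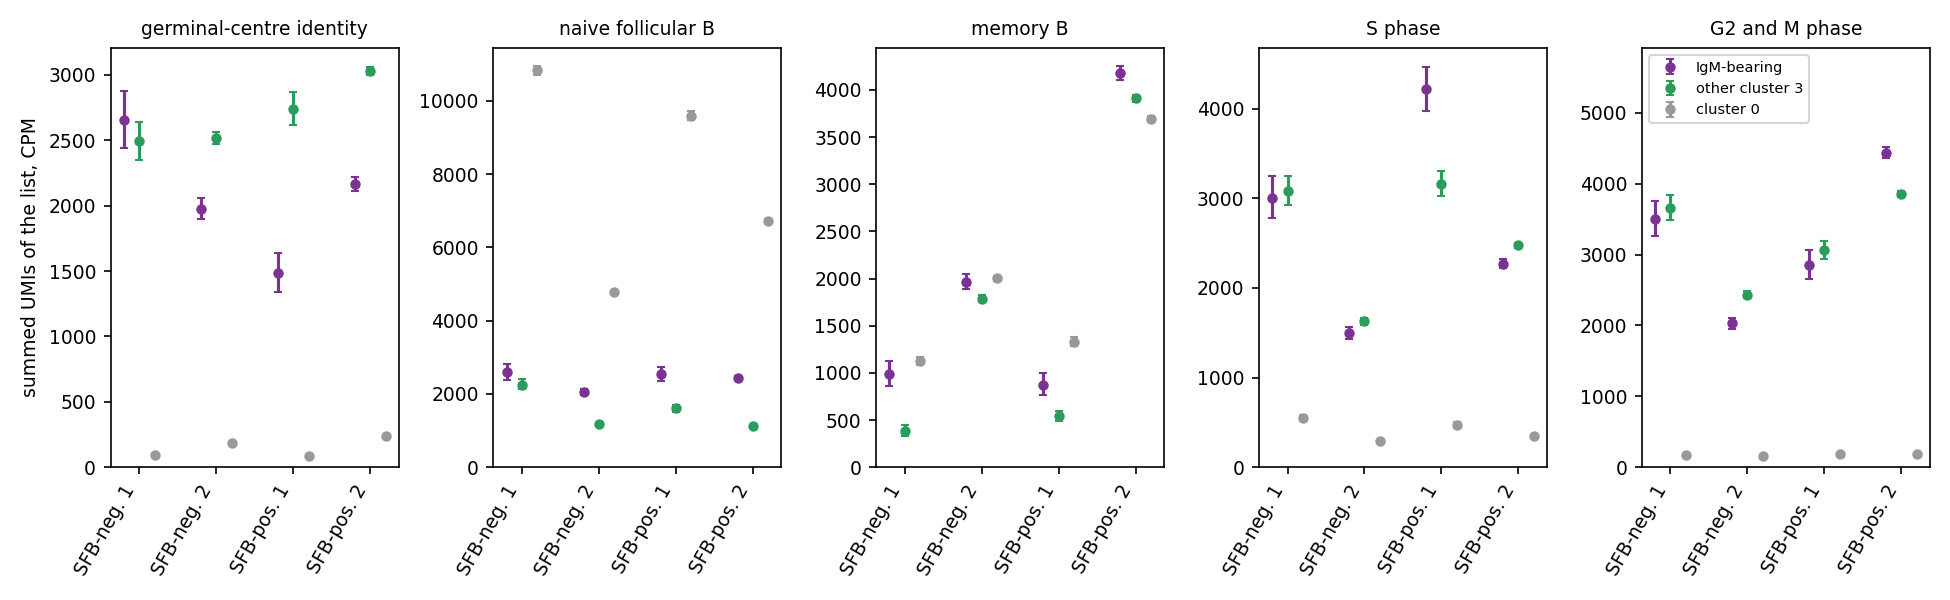
Summed UMIs of 5 gene lists (CPM, linear axes from 0, each panel with its own scale) in IgM-bearing cells, other cluster 3 cells and naive-like cluster 0 of each library. Bars are 95% counting intervals, and the germinal-centre list lies between 1484 and 2652 CPM in IgM-bearing cells and at most at 236 in cluster 0.

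Of the 7 tested memory B genes 4 were higher and 1 lower, with a median log2 difference of 1.78. Ccr6, the chemokine receptor that leads B cells to the subepithelial dome of Peyer's patches, held 16.6, 66.2, 44.7 and 139 scaled CPM against 10.9, 18.0, 12.4 and 16.2. It was higher by 2.65 ± 0.23 (6.26-fold, adjusted p = 2.19e-06) and the classes overlapped only through SFB-negative replicate 1. In that library its 4 UMIs in the IgM-bearing class lay in 1 of 47 cells (2.13%). Among the other cells there, 4 of 101 (3.96%) held a UMI of it, so the share of cells went the other way. Hhex, a transcription factor needed for memory B cells, was higher by 1.78 ± 0.23, with 24.9, 22.7, 33.5 and 18.0 against 10.9, 7.76, 10.9 and 4.74. Bcl2, the survival factor that germinal-centre B cells normally lack, held 24.9, 25.4, 37.2 and 71.5 against 15.2, 11.3, 4.65 and 10.4. Its log2 difference was 2.31 ± 0.27 with all libraries and 1.42 without SFB-positive replicate 2. Plac8, a small cysteine-rich protein, had the largest difference of the named genes, 2.92 ± 0.39 (adjusted p = 0.0213), with 585, 275, 562 and 240.6 against 71.8, 50.3, 167 and 17.3. It did not pass without SFB-negative replicate 1 (log2 2.88) or without SFB-negative replicate 2 (3.096), although the classes did not overlap in any library. Nt5e (CD73), which marks part of the memory cells, was lower (log2 -0.72 ± 0.13) and did not pass without SFB-positive replicate 2 (-0.55). In SFB-negative replicate 1 it was above the other class, at 62.3 against 45.7 scaled CPM. In cells thinned to 2000 UMIs the median over the list genes still tested was -0.22, with 1 gene higher and 1 lower. That fit tested 4404 genes in place of 7613, so this median and that of 1.78 may rest on different genes of the list. Thinned IgM-bearing cells held a mean of 1.44, 3.73, 1.53 and 8.83 UMIs of the list, and the others 0.798, 4.31, 1.09 and 8.34. The summed list was thus lower in IgM-bearing cells of SFB-negative replicate 2 and close to the others in SFB-positive replicate 2.

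The germinal-centre identity list had 9 of 12 tested genes lower and none higher, with a median log2 difference of -0.51. Gcsam, an adaptor protein of germinal-centre B cells, held 78.9, 141, 78.2 and 88.6 scaled CPM against 154, 287.5, 218.5 and 198 (log2 -1.07 ± 0.11, adjusted p = 1.16e-06). S1pr2, the receptor that confines cells to the germinal centre, held 37.4, 49.0, 22.3 and 56.9 against 102, 86.4, 141 and 113 (-1.03 ± 0.15, adjusted p = 8.28e-05). Both genes were lower in every library and their classes overlapped in neither. Mef2b, a transcription factor upstream of Bcl6, was lower (log2 -0.67 ± 0.11). Nuggc (-0.71 ± 0.13) and Neil1, a DNA glycosylase (-0.53 ± 0.11), were lower too. These 5 genes passed without each library in turn. Eaf2 did not pass without SFB-negative replicate 2 (-0.49), Fas (-0.29) without SFB-positive replicate 2, and Mybl1 without either (-0.42 and -0.23). Rgs13 (log2 0.23 ± 0.15, adjusted p = 0.454) did not pass and held 864, 513, 495 and 438 scaled CPM against 435, 545, 482 and 455. It was above the other class in SFB-negative replicate 1 by more than in any other library, and the summed list was higher in IgM-bearing cells in that library alone, at 2652 against 2491 CPM. Among cells with 3 or more germinal-centre UMIs, 6 of the 12 genes were lower and the median was -0.38.

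Genes of the cell cycle did not separate the classes. Of 18 S phase genes none passed (median log2 difference -0.01, with 8 above 0), and of 21 G2 and M phase genes only Ccnb2, a mitotic cyclin, was lower (-0.48 ± 0.12, not past the limit without SFB-negative replicate 2, where it was -0.38), with a list median of -0.07. Summed S phase UMIs were 3007, 1498, 4215 and 2272 CPM in IgM-bearing cells and 3083, 1626, 3162 and 2473 in the others. Summed G2 and M phase UMIs were 3506, 2029, 2851 and 4438 CPM against 3658, 2436, 3062 and 3854. Cluster 0 held at most 550.3 and 187 CPM of these lists. Without SFB-negative replicate 2 the G2 and M phase median was 0.12, and with only the IgM-bearing cells that held no switched UMI it was -0.37, with 6 genes lower. The log2 difference of Mki67 was 0.06 ± 0.10 (adjusted p = 0.822), and after thinning to 2000 UMIs 24.4%, 22.6%, 18.4% and 48.1% of IgM-bearing cells and 21.3%, 22.6%, 22.4% and 46.2% of the others held a UMI of it.

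Genes of T cell help and the light zone, where germinal-centre B cells are selected, were mixed. Of 17 tested genes 6 were higher and 1 lower, with a median of 0.15. The higher genes were Cd83, Bcl2a1d, Myc, Ccnd2, Cd69 and Irf4, and each of them missed the limit without at least 1 library. Myc, the transcription factor induced in selected cells, held 33.2, 38.1, 93.1 and 53.5 scaled CPM against 45.7, 22.3, 31.0 and 29.1 (log2 0.90 ± 0.18), and 0.85 without SFB-positive replicate 2, where it did not pass. Ccnd2, a G1 cyclin, held 58.1, 19.0, 115 and 71.5 against 39.1, 15.0, 44.9 and 27.2 (log2 1.19 ± 0.18), and 0.86 without SFB-positive replicate 2, where it did not pass. Icam1, an adhesion molecule, was lower (log2 -0.64 ± 0.13) and passed without each library in turn. Of 8 dark zone genes 3 were lower, Polh and Gcsam among them, with a median of -0.27. Of 9 immediate-early genes, which also respond to tissue digestion, 5 were higher (Fos, Fosb, Jun, Ier2 and Ier5), with a median of 0.47, and none of the 5 held in all 4 leave-one-out fits. Summed over the list, SFB-negative replicate 1 went the other way, with 2360 CPM against 3153. No heat shock gene of 9 passed.

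Few genes of the antigen receptor and of antigen presentation differed. Cd72, an inhibitory co-receptor, was the clearest, with 257, 160.5, 339 and 145 scaled CPM in IgM-bearing cells and 115, 47.3, 85.2 and 42.3 in the others. It was higher in every library with no overlap of a library's classes (log2 1.79 ± 0.11, adjusted p = 7.14e-09). Fcgr2b, the inhibitory Fc receptor, was higher by 0.53 ± 0.14 and did not pass without SFB-negative replicate 2 (0.43) or SFB-positive replicate 2 (0.45), and the other 14 genes of that list did not pass. Of 11 MHC class II genes H2-Aa (0.22 ± 0.06) and H2-Oa (0.49 ± 0.10) were higher, neither of which passed without SFB-positive replicate 2 (0.24 and 0.45), nor H2-Aa without SFB-positive replicate 1 (0.16). The light-chain constant gene Iglc2 was higher by 0.52 ± 0.10 (0.43 and not past the limit without SFB-positive replicate 2), and Igkc, Iglc1 and Iglc3 did not pass. Jchain, which joins IgM and IgA polymers, was lower (log2 -0.78 ± 0.12), at 1125, 391, 748 and 364 against 1679, 640, 2197 and 574.

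Receptors and factors that direct switching split in both directions. Of 16 tested genes 4 were higher and 1 lower, with a median of 0.19. Tnfrsf13b (TACI), a receptor for BAFF and APRIL, was higher by 0.80 ± 0.11, with 158, 92.5, 156 and 100.1 against 107, 51.3, 102 and 59.9. Ifngr2, a chain of the interferon-gamma receptor, was higher by 1.19 ± 0.18, and Runx3, a factor of TGF-beta driven switching to IgA, by 1.10 ± 0.20. Runx3 was too low to be tested without SFB-positive replicate 2. The TGF-beta receptor genes went opposite ways, Tgfbr2 higher (0.66 ± 0.11) and Tgfbr1 lower (-0.64 ± 0.11), neither of them past the limit without SFB-positive replicate 2 (0.58 and -0.58). Of 19 genes of the switch and mutation machinery none was higher and 2 were lower, among them Polh, a DNA polymerase of somatic mutation (-0.56 ± 0.14). Of 4 tested marginal-zone and innate-like B genes Dtx1 was higher (0.56 ± 0.15) and Zbtb20 lower (-0.33 ± 0.10), neither of which passed without SFB-negative replicate 2 (0.54 and -0.33) or without SFB-positive replicate 2 (0.76 and -0.40), nor Zbtb20 without SFB-positive replicate 1 (-0.23).

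The 15 genes with the largest positive differences among those at 20 scaled CPM or more and higher in every library were Plac8, Fam169b, Ly6d, Tsc22d1, Ifi203, Ccr6, Cnn3, Sdc4, Arhgap24, Cfp, Zmynd11, Cd38, Rdx, Bcl2 and Mndal. Ly6d, a surface protein of B-lineage cells, stood at 369.5, 318, 633 and 428 against 113, 61.4, 91.4 and 39.4 (log2 2.84 ± 0.23, 2.86 and not past the limit without SFB-positive replicate 1). Ifi203 (2.65 ± 0.25) and Mndal (2.28 ± 0.23) belong to the interferon-inducible Ifi200 family. Rdx, which links membrane proteins to actin, was higher by 2.32 ± 0.19 and Cfp, the complement protein properdin, by 2.44 ± 0.23. Sdc4, a cell-surface proteoglycan, was higher by 2.60 ± 0.43, not past the limit without either replicate 1 library (2.67 and 2.58) and 1.42 without SFB-positive replicate 2. Without SFB-positive replicate 2 the difference of Fam169b was 1.77 in place of 2.87. Among all 15, 8 were tested and past the limit without each library in turn. Among cells with 3 or more germinal-centre UMIs 10 of the 15 were, and Plac8, Ly6d, Fam169b, Cfp and Zmynd11 were not.

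The 15 genes with the largest negative differences under the same rule were Parm1, Tox, Eepd1, Cobl, Emp2, Tox2, Osbpl3, Lefty1, Snx10, Cryz, Gnb4, Scn8a, Ranbp17, Fscn1 and Sox5. Tox, a nuclear factor best known from T cells, held 0, 71.6, 0 and 115 scaled CPM against 15.2, 189, 49.6 and 402 (log2 -1.66 ± 0.15, adjusted p = 5.45e-07). Its relative Tox2 held 0, 20.9, 14.9 and 28.9 against 13.05, 54.3, 55.8 and 81.8 (-1.46 ± 0.17). Sox5, a transcription factor, held 8.30, 91.6, 0 and 155 against 21.7, 193, 12.4 and 382 (-1.18 ± 0.12). Parm1, a membrane protein, had the largest difference of the 15 (-1.83 ± 0.21), with 12.5, 31.7, 0 and 16.2 against 50.02, 70.4, 18.6 and 78.7. Of the 15, 11 were tested and past the limit without each library in turn, and all 15 passed among cells with 3 or more germinal-centre UMIs. Snx10 did not pass without SFB-positive replicate 2 (-0.99).

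**Figure D4:**
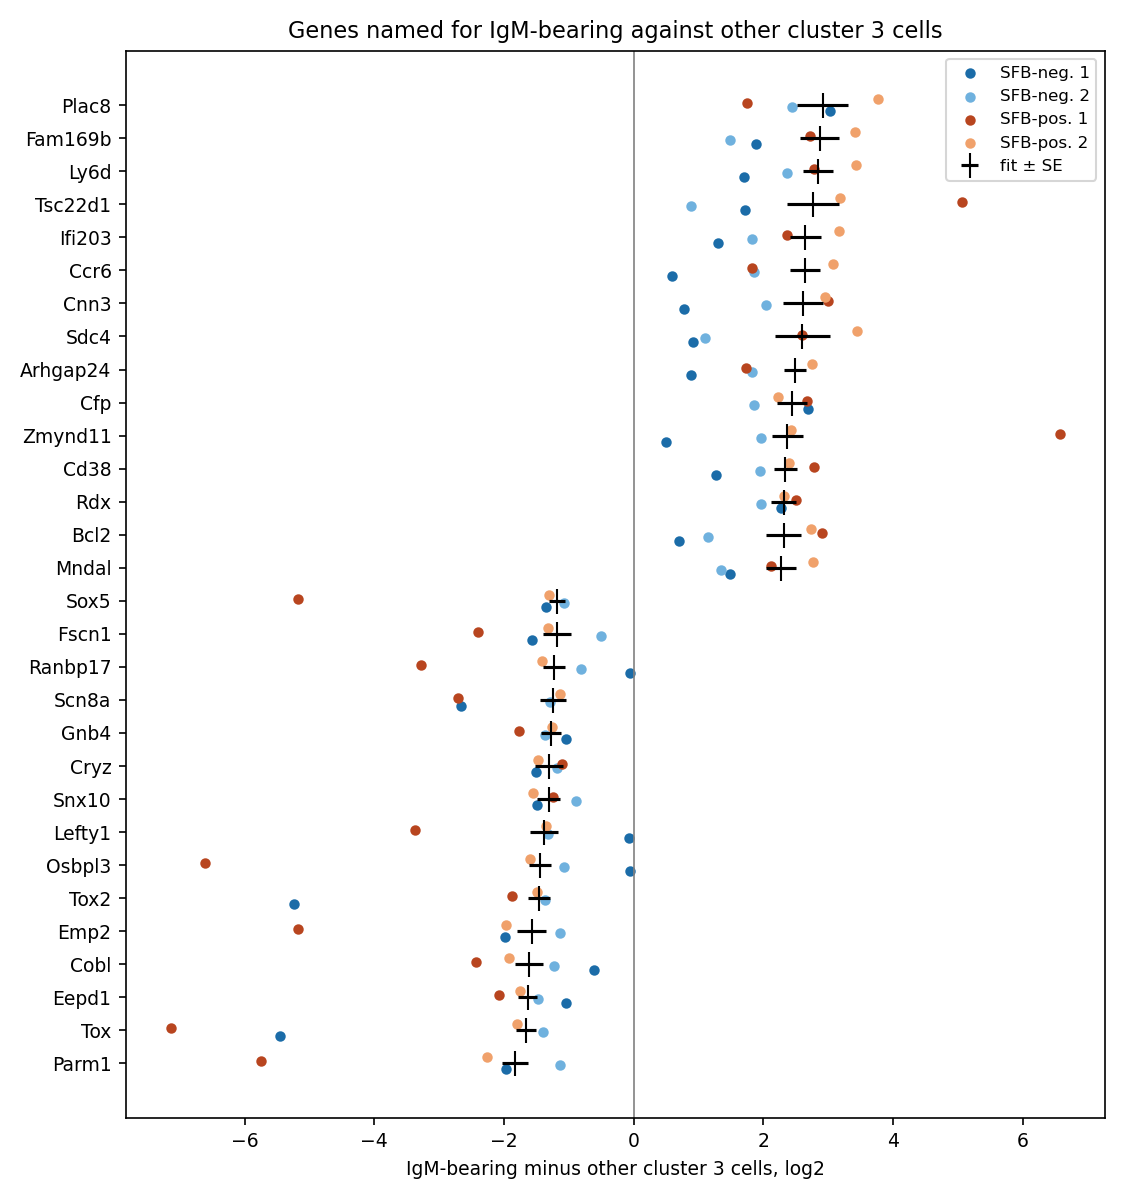
Log2 difference of IgM-bearing minus other cluster 3 cells for the 30 named genes, as points per library (log2 CPM with a prior count of 1) and as a black mark with the SE from the fit over 8 sums. The points below -5 and that of Zmynd11 above 6 are libraries with 0 UMIs in one class and depend on the prior count.

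Marker lists of T, myeloid, epithelial, stromal and red cells, which should be absent, summed to at most 194 CPM in either class. Of 10 T cell genes 1 was tested and did not pass, and their summed level was 72.0 to 109 CPM in IgM-bearing and 57.6 to 119 CPM in the other cells, with Cd3e at 0 in 3 of 4 libraries of IgM-bearing cells. Of 8 myeloid genes 1 was tested and did not pass, at 139 to 176 CPM against 156 to 194, with Lyz2 at most at 3.75 CPM. Epithelial genes summed to 7.49 to 14.9 CPM against 0 to 176, stromal genes to 22.5 to 94.4 against 16.2 to 72.5 and red cell genes to 3.75 to 16.6 against 6.53 to 28.9, and no gene of these 3 lists passed. Plasma cell genes stood above these lists, at 1204 to 2319 CPM against 1461 to 3422, and of 6 tested genes Irf4 was higher and Jchain lower.

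The IgM-bearing cells varied among themselves in germinal-centre genes more than the other cluster 3 cells did. The cells between the quartiles held 0.153 to 0.477%, 0.124 to 0.289%, 0.0181 to 0.293% and 0.0940 to 0.374% of their UMIs in the germinal-centre list, and the others 0.172 to 0.331%, 0.186 to 0.323%, 0.219 to 0.342% and 0.238 to 0.390%. After thinning to 2000 UMIs, 11.1%, 10.3%, 24.5% and 14.2% of IgM-bearing cells held no UMI of the list, and 3.37%, 1.46%, 3.50% and 2.11% of the others. The share of IgM-bearing cells lay above that of the others in all 4 libraries. The germinal-centre genes of the 136 cells with no switched UMI and of those with one stood at 2858, 1872, 1915 and 2517 CPM against 2517, 2030.0, 1259 and 2097, and the order of the 2 kinds was not the same in every library. Cells with no switched UMI held fewer UMIs of the memory list in every library, at 307, 1780, 580.1 and 4011 CPM against 1426, 2070, 1031 and 4209. When only these cells stood for the IgM-bearing class, a setting chosen after the data were seen, 347 genes passed, of which 276 were among the 643 with the same direction.

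IgM-bearing cells made up 32.9% and 25.2% of cluster 3 cells with 3 or more heavy-chain UMIs in SFB-negative libraries and 26.8% and 19.95% in SFB-positive libraries. The exact 95% binomial intervals were 25.2 to 41.2, 21.7 to 28.9, 20.7 to 33.7 and 17.3 to 22.9. The means were 29.0% ± 5.44 (SD, n = 2) and 23.4% ± 4.87 (SD, n = 2), and the libraries of the groups overlapped. The difference of -5.62 percentage points did not pass the test (exact two-sided permutation test, p = 0.667, with 0.33 the smallest possible for 2 against 2 libraries). Within replicate numbers 1 and 2 it was -6.03 and -5.22 points. With cells thinned to 2000 UMIs the shares were 35.6% and 37.0% against 28.2% and 28.5%, which did not overlap (difference -7.94 points, exact permutation test, p = 0.33). Among cells with 10 or more heavy-chain UMIs they were 42.0% and 37.6% against 34.4% and 21.0%, again without overlap (difference -12.1 points, exact permutation test, p = 0.33).

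Within the IgM-bearing cells few genes differed between SFB-positive and SFB-negative libraries. With the replicate number as a block 27 of 7274 genes passed (0.371%, edgeR), 7 higher (0.0962%) and 20 lower (0.275%) with SFB. Without the replicate block none passed by edgeR, with 8 genes at an unadjusted p under 0.05, and DESeq2 with the block called 2. The fit took the spread of a gene almost wholly from all genes together, so a small adjusted p here does not measure that gene's spread between libraries of a group. In 18 of the 20 lower genes the highest level was in SFB-negative replicate 2, and in 5 of the 7 higher genes it was in SFB-positive replicate 2. Library depth and replicate number therefore stand beside every value below, and their part in it was not tested.

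The 7 higher genes were Hspa1a, Hspa1b, Cdk14, Kif15, Zeb2, Rps6ka5 and Ccnd2. Hspa1a, an inducible heat shock chaperone, held 158 and 33.5 scaled CPM without SFB and 398 and 290.3 with it, so the groups did not overlap (log2 2.30 ± 0.37, and above 0 within both replicate numbers). Its paralogue Hspa1b, whose reads can be split with it, held 4.15 and 23.6 against 7.45 and 135 (2.52 ± 0.45), and its groups overlapped. The 4.15 of SFB-negative replicate 1 stands for 1 UMI. Of the 9 tested heat shock genes these 2 passed. Kif15, a mitotic kinesin, held 16.6 and 46.2 against 93.1 and 142 (1.87 ± 0.40, 2.46 and 1.61 within the numbers), and the groups did not overlap. Ccnd2 held 58.1 and 19.0 against 115 and 71.5 (1.58 ± 0.37, 0.99 and 1.89), again without overlap. Zeb2, a transcription factor of atypical and terminally differentiated lymphocytes, held 4.15 and 42.6 against 33.5 and 133 (1.84 ± 0.41), and its groups overlapped. It rested on 1 UMI in SFB-negative replicate 1 and on 428 UMIs in SFB-positive replicate 2, of which 34 lay in 1 cell. Cdk14 (1.92 ± 0.43) and Rps6ka5 (1.71 ± 0.43), both protein kinases, had 0 UMIs in SFB-negative replicate 1, and SFB-positive replicate 1 gave 1 and 2, so their differences came from the replicate 2 libraries.

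Of the 20 lower genes 6 were histone genes, 2 mitochondrial transcripts and 3 numbered gene models. Hist1h4d held 20.8 and 1763 scaled CPM without SFB and 0 and 113 with it (log2 -3.91 ± 0.51). Cdk8, a kinase of the Mediator complex, held 29.1 and 2049 against 18.6 and 56.9 (-4.49 ± 0.55), and the difference within replicate number 1 was -0.63. Lars2, a mitochondrial tRNA ligase, held 8.30 and 388 against 7.45 and 25.8 (-3.61 ± 0.47, -0.15 within number 1). In these 3 genes the groups differed mainly through SFB-negative replicate 2. Usmg5, a subunit of ATP synthase, held 154 and 275 against 63.3 and 90.1 (-1.45 ± 0.35, -1.27 and -1.60 within the numbers), and Ndufb4, a subunit of complex I, held 78.9 and 168 against 33.5 and 55.3 (-1.45 ± 0.38). Pet100, which assembles complex IV, held 91.3 and 103 against 48.4 and 29.8 (-1.47 ± 0.36). In the last 3 genes both SFB-negative libraries lay above both SFB-positive ones. mt-Atp8 (-2.52 ± 0.41) did likewise at 41.5 and 199 against 18.6 and 27.04, and Rps27rt (-1.86 ± 0.37) at 66.4 and 128 against 52.1 and 21.8.

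**Figure D5:**
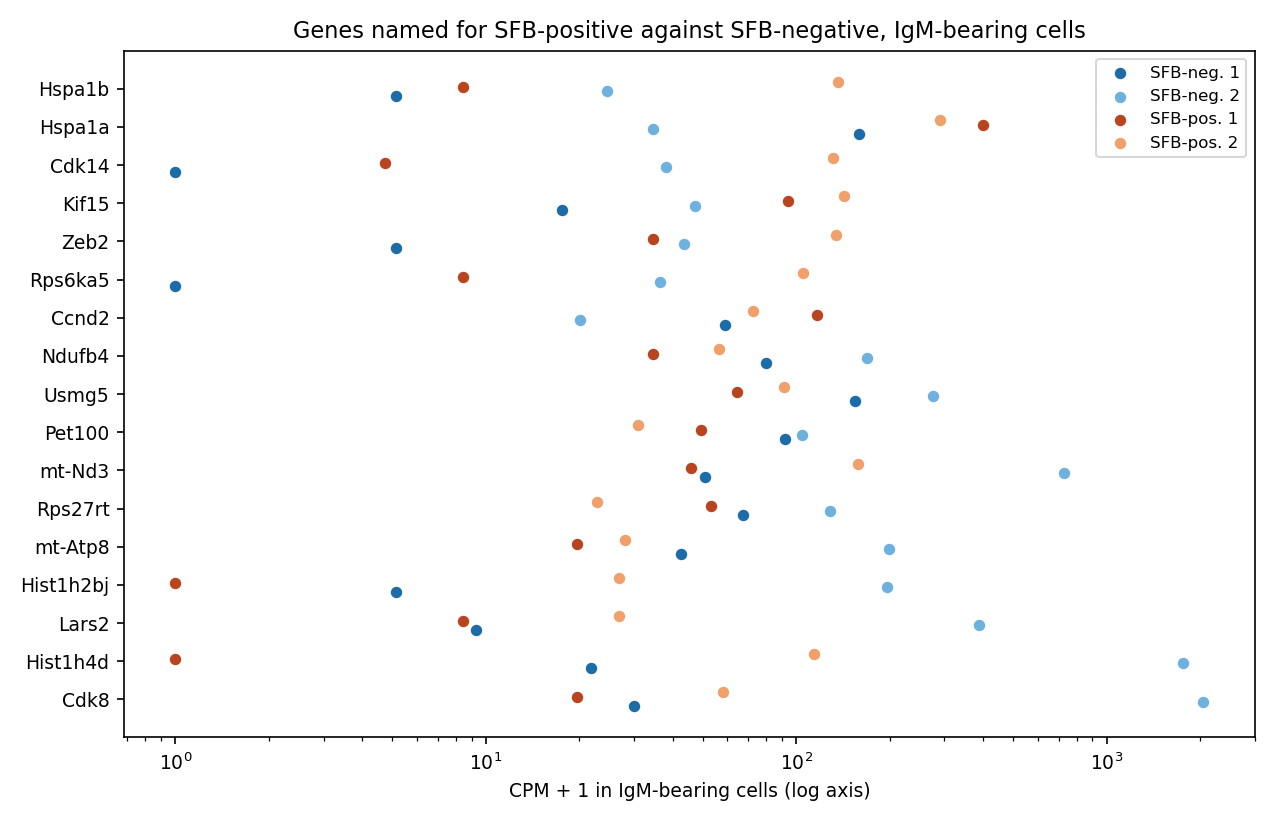
Scaled CPM plus 1 (log axis) of the 17 genes named for SFB-positive against SFB-negative libraries in IgM-bearing cells, 1 point per library. Points at 1 are libraries listed at 0 CPM, and Cdk8, Hist1h4d and Lars2 stand apart in SFB-negative replicate 2 with 2049, 1763 and 388 CPM.

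No list apart from heat shock and Ccnd2 of the light zone list had a gene past the limit in this comparison. All 21 G2 and M phase genes and 17 of 18 S phase genes had log2 differences above 0, with medians of 0.44 and 0.49 beside 0.10 over all genes, and none passed. The summed G2 and M phase UMIs given above were lower with SFB within replicate number 1 and higher within number 2. Mki67 likewise held 198 and 221 CPM without SFB and 179.8 and 837 with it. Summed S phase UMIs were higher with SFB within both numbers. Of 12 germinal-centre identity genes 4 were above 0, with a median of -0.28, of 11 MHC class II genes 1, with a median of -0.27, and of 17 switch-directing genes 15, with a median of 0.28. None of these passed.

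The difference in SFB effect between IgM-bearing and other cluster 3 cells passed for 25 of 8490 genes (0.294%, edgeR, library block), 22 of them above 0 (0.259%) and 3 below (0.0353%). DESeq2 called none, with 36 genes at an unadjusted p under 0.05. As in the SFB fit within IgM-bearing cells, the spread of a gene was taken almost wholly from all genes together. A small adjusted p here therefore does not measure that gene's own spread between libraries. The edgeR count was 12 without SFB-negative replicate 1, 10 without SFB-negative replicate 2 and 8 without SFB-positive replicate 2. Gpr183 was among the 22, with an interaction of 1.14 ± 0.28 on the log2 scale. Its level with SFB differed by 0.29 and -0.60 within the replicate numbers in IgM-bearing cells and by -1.10 and -1.62 in the others. Bcl2 was also among them (1.73 ± 0.45), with 0.57 and 1.48 in IgM-bearing and -1.64 and -0.11 in other cells. Zeb2 was among them too (1.50 ± 0.37). Neither Gpr183 nor Bcl2 passed without SFB-negative replicate 1 (0.95 and 1.62), SFB-negative replicate 2 (2.12 and 2.03) or SFB-positive replicate 2 (0.43 and 1.99), and Bcl2 also not without SFB-positive replicate 1 (1.70). No gene of the germinal-centre, cell cycle, MHC class II or heat shock lists passed.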

How the data were processed

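Single-cell 3' RNA libraries of CD45+ Peyer's patch cells were deposited by the authors as UMI counts per gene and barcode, without normalization. Per the submitters' processing notes, Cell Ranger 5.0.1 and mm10 were used. Per the file headers, replicate 1 carries Cell Ranger 6.0.0 and 15 antibody tags and replicate 2 carries 7.0.0 and no tags. The authors also deposited a cell table with library, cluster, UMI counts and percent of mitochondrial UMIs. Its UMI counts equalled the gene sums for 65.2% to 78.6% of cells (largest gap 85). No header or label states cell filters or doublet removal, and no doublet caller was run. Library totals were 7198366, 47273320, 6979187 and 83600989 UMIs.

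The IgM-bearing cells, gene lists and tests were chosen with earlier results of these data known. Counts were summed per library and class, without the 8 rule genes, and tested with edgeR 4.0.16 (R 4.3.3, robust quasi-likelihood, TMM, filterByExpr, Benjamini-Hochberg, limit 0.05). The code was run on simulated counts with the same spread for all genes, which cannot show how the tests behave when genes or libraries differ in spread. DESeq2 1.42.0 was an alternative. T-like barcodes lay outside the table, with 3 or more UMIs of T cell genes and none of 3 B cell genes. The SFB fit has the replicate number as a block, since it marks software, tags and depth. Same-numbered libraries deviated together (correlation 0.677 over 7670 genes, equal for both pairs by construction). Named genes passed the limit, reached 20 CPM in the higher group and kept 1 direction in every library or replicate number. Those with the largest differences were taken, up to 15 each way between classes, 10 for SFB and 5 for the interaction, without numbered gene models. Called list genes, the most abundant list genes and 3 markers were added. Other genes were named after their values were seen, and 1 called list gene is not reported here. Alternatives covered normalization, low-count filters, heavy-chain minimums, deep cells, thinning, the comparison class, blocks and each library left out. Coordinates are from GENCODE on GRCm38.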

Additional observations from a re-analysis of the deposited data

Results flagged for a closer look

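For 7 named genes the SFB effect differed between IgM-bearing and other cluster 3 cells by a test of that difference itself (edgeR, adjusted p under 0.05). In this fit the adjusted p does not measure a gene's own spread between libraries, as stated above. On the log2 scale, IgM-bearing minus other, the difference was 2.37 for Sdc4, 2.13 for Tanc2, 2.06 for Klf4, 1.86 for Lockd, 1.80 for Mllt3, -2.27 for Cbfa2t3 and -0.75 for Basp1. Sdc4 differed with SFB by 0.95 and 1.00 within replicate numbers 1 and 2 in IgM-bearing cells and by -0.73 and -1.34 in the others. Lockd, a non-coding RNA, differed by 0.54 and 0.67 against -1.26 and -1.14. Cbfa2t3, a transcriptional corepressor, differed by -1.44 and -0.71 against 1.25 and 1.57. In Basp1, a membrane-bound protein, the values were -1.03 and -0.46 against 0.39 and -0.02. In Tanc2 they were -1.65 and -0.83 against -4.68 and -2.91, and in Mllt3 -1.09 and 1.65 against -4.68 and -0.12; both genes had 0 CPM in the other cells of SFB-positive replicate 1, so these values depend on the prior count. In Klf4, a transcription factor, they were -0.01 and 1.73 against -1.30 and -0.06. None of the 7 passed by DESeq2. Without SFB-negative replicate 2, Klf4 alone of the 7 still passed, and without SFB-positive replicate 2, Basp1 alone did.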

How the results depend on the processing

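Of the genes called between IgM-bearing and other cluster 3 cells, 643 in all, DESeq2 called 277, the fit without a filter on low counts 1142, and cells thinned to 2000 UMIs 178. With IgM-bearing cells that held no switched UMI, chosen after the data were seen, 347 were called, and 0 without the library block (edgeR, 169 at an unadjusted p under 0.05). Leaving out 1 library in turn gave 194 to 844. For Mki67, which was not called, the difference was -0.0914 to 0.123 with 1 library left out (lowest without SFB-positive replicate 2), -0.0581 in thinned cells and -0.16 in cells with no switched UMI. For SFB within IgM-bearing cells (27 genes), DESeq2 called 2, the fit without a filter 46, and the fit without the replicate block 0 (8 at an unadjusted p under 0.05). Leaving out 1 library, which allows no block and leaves 1 group with a single library assumed to vary like the other, gave 0 to 4, and without SFB-negative replicate 2 the differences of Cdk8 (0.46), Hist1h4d (1.57) and mt-Nd3 (1.06) were above 0. For the difference of the SFB effect (25 genes), DESeq2 called 0 (36 at an unadjusted p under 0.05), the fit without the deepest cells 10, and leaving out 1 library 8 to 24. The causes were not tested. The difference in the share of IgM-bearing cells was -1.77 to -9.47 points with 1 library left out. It was -3.85 with all cluster 3 cells in the denominator and -12.1 with a minimum of 10 heavy-chain UMIs. With the replicate block it is -5.62 by construction, since each number holds 1 library per group, so the block shows nothing about stability. Depth limits replicate 1 most, with 47 and 51 cells, and intervals cover counting error only.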
